A study of Mus musculus with 13 samples.

Results

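The steroid receptor genes other than Pgr are 8 genes of the mouse genome, taken out of 21938 protein-coding genes. They comprise the nuclear estrogen receptors Esr1 and Esr2, the membrane estrogen receptor Gper1, the glucocorticoid receptor gene Nr3c1, the mineralocorticoid receptor gene Nr3c2, and the estrogen-related receptors Esrra, Esrrb and Esrrg. The genes were chosen by name, and the locus of each was its gene body in the GENCODE vM21 annotation (mm10) with 10 kb added on each side. Of 686823 ESR1 peaks in 12 lists, 363 had their summit, the base of highest signal, in these loci. Peaks that overlapped by at least 1 bp between lists were joined into 228284 regions genome-wide, and 150 of them lay in the 8 loci and are called sites here.

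ESR1 ChIP-Seq, which recovers DNA bound by the receptor with an antibody, was performed on primary LAM fibroblasts, grown from the lower abdominal muscle of Aromhum animals. All 12 libraries come from this genotype, a mouse with the human aromatase gene, whose product makes estradiol (E2) from testosterone, so that no wild-type fibroblasts enter any comparison. Cells in serum-free medium were given vehicle (ethanol and DMSO), E2 (10 nM), fulvestrant (100 nM), or E2 (10 nM) with fulvestrant (100 nM), with fulvestrant or DMSO first, harvest after 1 h of E2 or ethanol and 3 libraries per treatment. The labels do not say whether replicates came from separate animals, so p-values measure only the spread between these libraries. A peak list of a transcription factor holds no marker expression, and the fibroblast label could not be checked here.

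Steroid receptors are ligand-activated transcription factors. ESR1 binds E2 and attaches to DNA at estrogen response elements, which are inverted repeats of the GGTCA core, or through other factors such as AP-1. Fulvestrant competes with E2 for the receptor and promotes its degradation. Estrogen-related receptors are orphan receptors that resemble ESR1 in sequence but do not bind E2, and ESR1 is known to act on its own gene in several tissues.

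Of the 8 loci, Esr1 held the most peaks over the 12 libraries (124 in 414 kb). Nr3c1 held 79 in 129 kb and Esrra 56 in 30.8 kb, so Esr1 did not hold the most for its length. Esr1 and Nr3c1 had equal mean numbers with vehicle (7) and with fulvestrant alone (6.67). Every E2 library held more Esr1 peaks than any vehicle library. Esrrg was the other locus in which these treatments did not overlap, as in 10.5% of all genes tested. The Esr1 separation was lost without repeat-masked peaks and per 10000 peaks of each list. Strong peaks stood at an Nr3c1 promoter and, in the Esrra locus, at the start of the neighboring gene Trmt112, while the promoter of Esrra itself held a weaker site. The ranks of these sites overlapped between the libraries given E2 and those not given it. Esr2, Esrrb and Nr3c2 held few peaks, most of them in 2 libraries that stand apart, and Gper1 held 3. Without the most deviant library, E2 replicate 1, ESR1 ranked higher with E2 than without it at 2 of 23 sites, in introns of Esr1 and of Esrrg, against 4.12% of all regions tested, and at none with all 12 libraries.

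Windows of 201 bases (mm10, plus strand), centered on the median summit, show the sequence at the sites on which the E2 comparisons turn. The Esr1 intronic site (chr10:4618664-4618864) was the best-ranked site of its locus, and the Esr1 intronic E2 site (chr10:4806520-4806720) was the best-ranked site of Esr1 seen in E2 replicates 2 and 3 but in no library without E2. The Esrrg intronic site (chr1:188118099-188118299) was the best-ranked site of Esrrg, and the second Esrrg site (chr1:188136228-188136428) was chosen in the same way as the Esr1 intronic E2 site. No window overlaps an exon. Capitals mark GGTCA or TGACC cores and the AP-1 motif TGANTCA on either strand, except in the Esrrg intronic site, where they mark the estrogen response element.
Esr1 intronic site: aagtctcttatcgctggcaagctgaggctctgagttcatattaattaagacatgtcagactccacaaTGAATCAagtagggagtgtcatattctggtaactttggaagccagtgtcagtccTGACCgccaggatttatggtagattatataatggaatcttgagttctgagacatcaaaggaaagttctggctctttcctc
Esr1 intronic E2 site: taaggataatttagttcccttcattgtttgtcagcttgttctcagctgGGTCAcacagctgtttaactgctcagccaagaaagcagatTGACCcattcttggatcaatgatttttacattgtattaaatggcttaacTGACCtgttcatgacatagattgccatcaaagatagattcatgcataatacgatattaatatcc
Esrrg intronic site: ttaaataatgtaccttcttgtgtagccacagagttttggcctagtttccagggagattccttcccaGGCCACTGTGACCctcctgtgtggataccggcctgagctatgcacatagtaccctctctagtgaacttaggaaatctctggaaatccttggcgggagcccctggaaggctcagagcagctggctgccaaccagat
Esrrg second intronic site: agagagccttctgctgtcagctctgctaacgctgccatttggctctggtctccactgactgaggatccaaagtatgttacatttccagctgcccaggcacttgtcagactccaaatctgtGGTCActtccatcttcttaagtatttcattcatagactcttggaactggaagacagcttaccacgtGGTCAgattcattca

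An estrogen response element was searched as GGTCANNNTGACC with at most 1 mismatch, on both strands, within 100 bp of the summit. Of the 150 sites, 1 held such an element at its best summit (0.667%), against 1.36% of all 228284 regions. That site was the Esrrg intronic site, where the element carried the substitution T3C, counted from 1 at the first G of the motif, and was found beside the summit in all 11 libraries with a peak there. The Esr1 intronic site held no such element but held 1 AP-1 motif and 1 TGACC core. A GGTCA core (either strand) was found at 24.7% of the sites against 29.0% of all regions, and the AP-1 motif TGANTCA at 5.33% against 5.96%. Among the 23 sites present in at least 3 libraries, 4.35% (1 site) held the element, against 3.13% of the 49642 regions with that presence. The AP-1 motif stood at 21.7% of the 23, against 9.46%. All 8 of the 150 sites with the AP-1 motif lay in Esr1 (6) or Esrrg (2), and most of those among the 23 lay in Esr1.

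The libraries were uneven. The lists held 34293 to 104571 peaks. In E2 replicate 1, 59.4% of peaks were repeat-masked, meaning that over 50% of bases within 100 bp of the summit lie in annotated repeats. The share was 27.9% in fulvestrant replicate 2 and 5.57% to 7.79% in the other 10 libraries. The lowest background, in fragments recovered from the fold and p-value columns, reached 1.41 in E2 replicate 1, or 40.2% of the median library, and 2.87 in fulvestrant replicate 2, or 81.9%, while the other 10 lay at 91.8% to 108%. Of the 109 sites found in a single library, 48 were found only in E2 replicate 1 and 14 only in fulvestrant replicate 2. The part of these library differences in the results was not tested, and results that rest on these libraries are given with and without them.

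Esr1 encodes ESR1 itself, the receptor that was precipitated. Its locus (gene body chr10:4611593-5005614, plus strand) held 8, 5 and 8 peaks in the vehicle libraries, 19, 15 and 18 in the E2 libraries, 9, 9 and 13 under E2 plus fulvestrant, and 8, 5 and 7 with fulvestrant alone. Every E2 library held more peaks than any vehicle or E2 plus fulvestrant library, every E2 plus fulvestrant library held more than any vehicle or fulvestrant library, and the fulvestrant and vehicle libraries overlapped. The mean was 17.3 ± 2.08 (SD, n = 3) with E2 and 7 ± 1.73 (SD, n = 3) with vehicle, a difference of 10.3 peaks (2.48-fold), with an exact two-sided permutation p of 0.1, the smallest that 3 libraries against 3 allow.

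The same separation of E2 from vehicle was seen in 10.5% of the 16370 genes tested and in 2 of 7 members, Esr1 and Esrrg, with a median difference of 1.67 peaks over the members and 1 over all genes. For the size of the difference, 121 genes were at least as high as Esr1. Genes were not matched for locus length in these counts, and Esrrg (626 kb) and Esr1 (414 kb) were the longest of the 8 loci. E2 exceeded E2 plus fulvestrant by 7 peaks (exact permutation p = 0.1, without overlap, as in 4.89% of genes). E2 plus fulvestrant exceeded vehicle by 3.33 peaks (exact permutation p = 0.1, without overlap, as in 4.43% of genes), and fulvestrant alone differed from vehicle by -0.33 peaks (exact permutation p = 1). E2 plus fulvestrant exceeded fulvestrant alone by 3.67 peaks (exact permutation p = 0.1, without overlap, as in 1.69% of genes). Esr1 was the only member to separate in the comparisons of E2 with E2 plus fulvestrant (1 of 7 tested) and of E2 plus fulvestrant with vehicle (1 of 5 tested), and none of 5 did in fulvestrant against vehicle, against 3.77% of genes. No tested member was lower without overlap in E2 against vehicle (0.568% of genes), E2 against E2 plus fulvestrant (0.789%), E2 plus fulvestrant against vehicle (0.616%), fulvestrant against vehicle (0.503%), or the 6 libraries given E2 against the 6 not given it (0.0115%). These comparisons share libraries and are not independent.

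Over the 6 libraries given E2 and the 6 not given it, Esr1 peak numbers ran from 9 to 19 and from 5 to 8, with no overlap. The difference was 7 peaks with an exact permutation p of 0.0022, the smallest possible, and a Benjamini-Hochberg adjusted p of 1 over 17417 genes. Groups separated in this direction in 0.161% of genes, or 28 in all, and in 1 of the 8 members. No gene reached an adjusted p below 0.05 by this exact permutation test, and 517 had an unadjusted p below 0.05. The E2 effect on Esr1 peak number was 10.3 without fulvestrant and 3.67 with it. The difference of these effects had an exact permutation p of 0.1 (Benjamini-Hochberg adjusted p = 0.901). In this test of 400 arrangements the smallest p of any gene was 0.005.

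Of the 19 Esr1 peaks in E2 replicate 1, 14 were repeat-masked, against 0 to 2 in each other library. Without repeat-masked peaks the numbers were 5, 15 and 17 with E2 against 8, 4 and 8 with vehicle, so that the groups overlapped, and the difference over all libraries given E2 fell from 7 to 4.83 peaks (exact permutation p = 0.0455). Without E2 replicate 1 it was 5.97 peaks and the groups stayed apart. Scaled to 10000 peaks of each list, Esr1 held 1.82, 2.46 and 2.61 with E2 and 1.56, 1.46 and 2.01 with vehicle, which overlap.

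**Figure D1:**
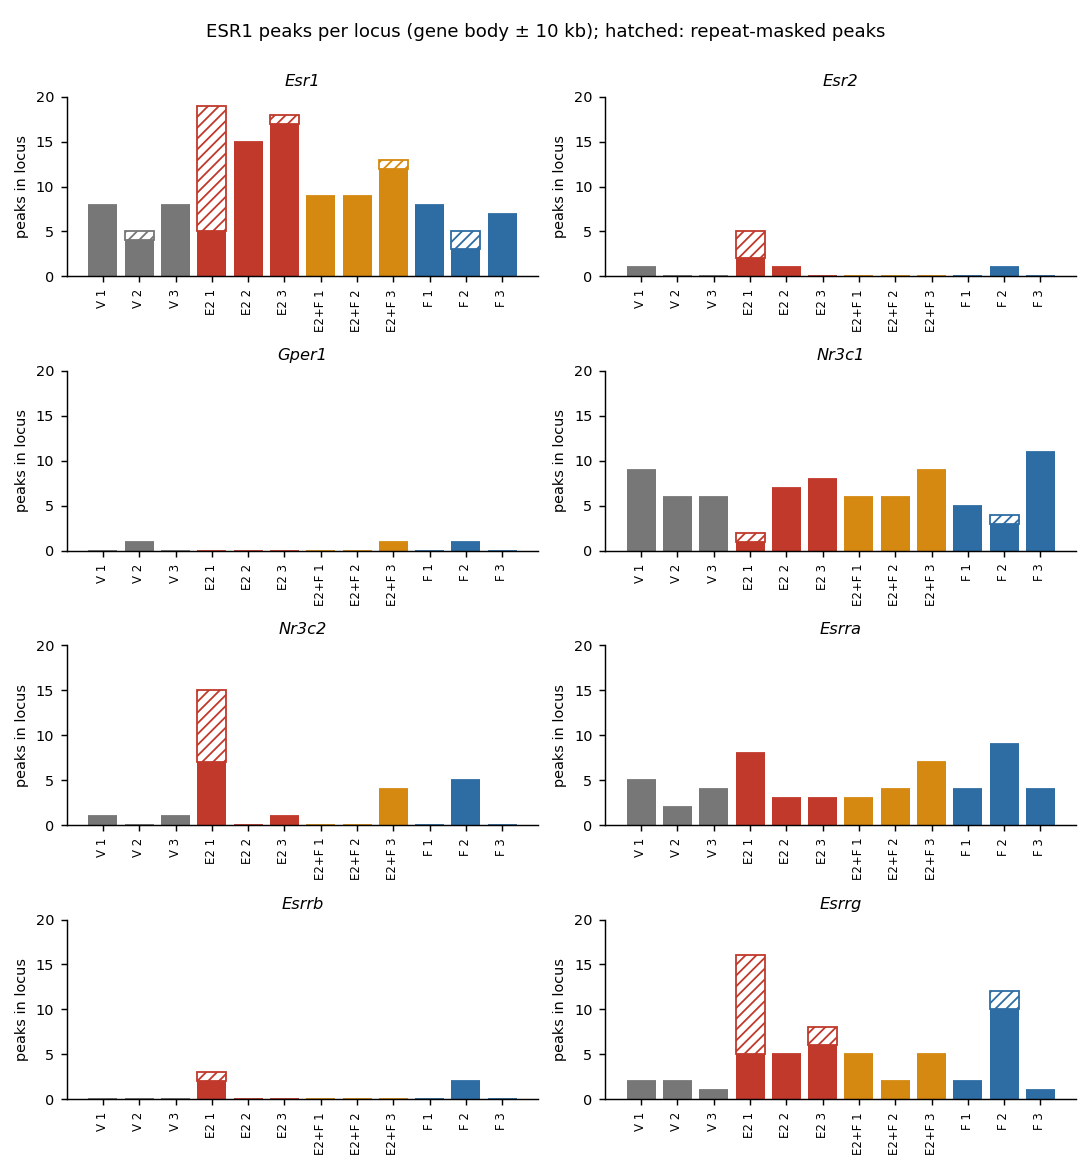
Number of ESR1 peaks (vertical axis) in the locus of each gene for the 12 libraries (V, vehicle; E2; E2+F, E2 plus fulvestrant; F, fulvestrant), each bar 1 library, with the hatched part repeat-masked. Esr1 bars stand at 15 to 19 in E2 and at 5 to 8 in vehicle, and most of the E2 replicate 1 bar (14 of 19 peaks) is hatched.

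The Esr1 intronic site (merged region chr10:4617353-4619572) lay in an intron, with its best summit 7.24 kb from the gene start, and had a peak in all 12 libraries. In the vehicle libraries its peak held 54, 38 and 51 fragments at the summit. With E2 it held 14, 145 and 137. With E2 plus fulvestrant it held 77, 95 and 100, and with fulvestrant alone 53, 19 and 40. Vehicle and fulvestrant libraries overlapped, and all 3 E2 plus fulvestrant libraries lay above both. E2 replicates 2 and 3 lay above every other library, while E2 replicate 1 held the fewest fragments.

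Fragments were divided by the lowest background of their library to give a summit height that can be set across libraries. By height, E2 replicate 1 was not the lowest at the Esr1 intronic site. Its value of 9.93 lay above fulvestrant replicate 2 (6.62) and below the vehicle libraries (10.3 to 15.0). Without E2 replicate 1 and fulvestrant replicate 2, the height at the Esr1 intronic site was 38.5 ± 3.32 (SD, n = 2) with E2, 27.3 ± 4.53 (SD, n = 3) with E2 plus fulvestrant, 13.34 ± 2.68 (SD, n = 3) with vehicle and 12.3 ± 2.41 (SD, n = 2) with fulvestrant. In these 10 libraries the height with E2 was 2.46 times that without it (exact permutation p = 0.00794, the smallest possible, Benjamini-Hochberg adjusted p = 0.118 over 49642 regions). In the same 10 libraries, the height with E2 plus fulvestrant lay between vehicle and E2 (n = 2), with no overlap among the 3. With E2 replicate 1 (9.93) included, E2 overlapped both other treatments. The share of regions with this order of heights was not counted.

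Ranks were set on a scale where 0 is the top of a list and 100 means no peak. The rank percentile of the Esr1 intronic site was 0.397 and 0.455 in E2 replicates 2 and 3, 0.637 to 0.887 with E2 plus fulvestrant, 2.13 to 14.3 with vehicle and 7.56 to 25.7 with fulvestrant, and it was 75.4 in E2 replicate 1. The best peak of fulvestrant replicate 2 had its summit 1300 bp from the best summit, in repeat-masked sequence. Over all 12 libraries the means differed by 2.04 percentile points (exact permutation p = 1), and without E2 replicate 1 by -10.4 points (exact permutation p = 0.0173, adjusted p = 0.173). E2 plus fulvestrant ranked better than vehicle without overlap (exact permutation p = 0.1), as did 9.02% of regions, and better than fulvestrant alone (exact permutation p = 0.1), as did 8.28%.

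The promoter of Esr1 held a weaker site (chr10:4611234-4613149), 103 bp from an annotated start, in 10 of 12 libraries. Its rank percentile ran from 18.1 to 68.4 with vehicle, was 20.05 and 22.1 in E2 replicates 2 and 3, and ran from 32.4 to 37.5 with E2 plus fulvestrant. The groups overlapped (exact permutation p = 0.517 for the 6 libraries given E2 against the 6 not given it). A site beyond the end of the gene (chr10:5014391-5016412) was also present in 10 libraries. The 6 libraries given E2 overlapped the others (exact permutation p = 0.0758), and the rank percentiles were 35.6, 35.7 and 11.6 with E2 against 38.5 and 42.2 in vehicle replicates 1 and 3. The E2 lists are longer than the vehicle lists, and as positions in the list these ranks were 37262, 21749 and 8009 against 19702 and 16772, which overlap.

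No site of the 8 loci was in 3 of 3 E2 libraries and 0 of 3 vehicle libraries, a pattern held by 0.344% of regions. None showed the reverse (0.0162%), and none was in every E2 library while absent under E2 plus fulvestrant (0.207%) or the reverse (0.0732%), in all E2 plus fulvestrant and no vehicle libraries (0.569%) or the reverse (0.0434%), or in all fulvestrant and no vehicle libraries (0.144%) or the reverse (0.0924%). Without E2 replicate 1, 9 sites (6% of 150) were in both other E2 libraries and in no vehicle library, against 3.25% of all regions, and 7 of these lay in the Esr1 locus and 2 in Esrrg. The same 9 were absent from the 3 fulvestrant libraries too. Presence in E2 replicates 2 and 3 and in no library without E2 held for 1.84% of all regions. Of the 9, 4 were also found with E2 plus fulvestrant in at least 1 library (44.4%, against 64.7% of the 4199 regions of this kind). In the E2 against E2 plus fulvestrant comparison, 5 of the 150 sites (3.33%) were in E2 replicates 2 and 3 and in no E2 plus fulvestrant library, against 1.51% of regions. This rule was added after the data were seen.

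The 7 Esr1 sites of this kind lay from -1.16 to 382 kb from the gene start, and they were weak, with 13 to 28 fragments at the summit in E2 replicates 2 and 3. The best-ranked was the Esr1 intronic E2 site, 195 kb into the gene, which held 25 and 22 fragments at rank percentiles of 20.8 and 31.0. Its window holds 3 GGTCA or TGACC cores. A nearby site (chr10:4804102-4804661) was present in 7 libraries, with 18 and 21 fragments in E2 replicates 2 and 3, 13, 12 and 18 with E2 plus fulvestrant, 13 in 1 vehicle library and 12 in 1 fulvestrant library. It was the third site whose heights separated the libraries given E2 from the others once E2 replicate 1 and fulvestrant replicate 2 were left out, a separation seen in 6.7% of regions.

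**Figure D2:**
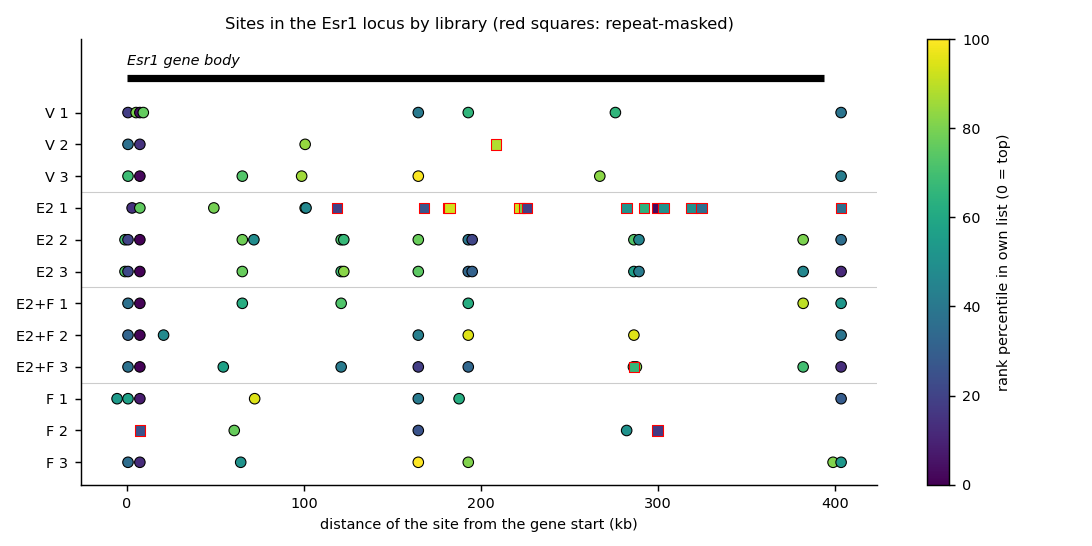
Sites in the Esr1 locus by distance from the gene start (horizontal axis, kb) and library (rows), colored by rank percentile in the library's own list, with 0 at the top and red squares for repeat-masked peaks. The column at 7.24 kb is filled in every library, while the red squares stand mostly in the row of E2 replicate 1.

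Esr2 encodes the second nuclear estrogen receptor. Its locus (gene body chr12:76120419-76177259, minus strand) held 1, 0 and 0 peaks with vehicle, 5, 1 and 0 with E2, none under E2 plus fulvestrant, and 0, 1 and 0 with fulvestrant. The groups overlapped, and 5 of the 6 sites were found only in E2 replicate 1. The best-ranked, 2.91 kb upstream of the gene start, was repeat-masked over its whole window. The site at the Esr2 promoter was in 3 libraries, 1 each of vehicle, E2 and fulvestrant.

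Gper1 encodes the G protein-coupled estrogen receptor of the cell membrane. Its locus (gene body chr5:139423151-139427800, plus strand) held 3 peaks in all, 1 in vehicle replicate 2, 1 in E2 plus fulvestrant replicate 3 and 1 in fulvestrant replicate 2. They formed 1 site at the promoter, 260 bp from the gene start, with 15, 11 and 10 fragments. No E2 library had a peak in the Gper1 locus. Too few peaks were found for any comparison of 2 treatments to be tested, and the 6 libraries given E2 overlapped the other 6 (exact permutation p = 1).

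Nr3c1 encodes the glucocorticoid receptor, which is broadly active in fibroblasts. The Nr3c1 locus (gene body chr18:39410545-39519421, minus strand) held 9, 6 and 6 peaks with vehicle, 2, 7 and 8 with E2, 6, 6 and 9 under E2 plus fulvestrant, and 5, 4 and 11 with fulvestrant. All treatments overlapped, and the 6 libraries given E2 held 6.33 ± 2.42 (SD, n = 6) against 6.83 ± 2.64 (SD, n = 6) in the others (exact permutation p = 0.829). E2 replicate 1 was the lowest of all at 2.

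The site with the best mean rank of the 8 loci was at an Nr3c1 promoter (chr18:39488290-39492383), 724 bp from an annotated start, in all 12 libraries. Its rank percentile was 0.729 to 1.99 with vehicle, 0.418 to 2.79 with E2, 1.74 to 5.19 with E2 plus fulvestrant and 0.285 to 1.49 with fulvestrant. E2 plus fulvestrant ranked worse than fulvestrant alone without overlap (exact permutation p = 0.1), as did 4.79% of regions, and the other treatments overlapped. Over all 12 libraries the difference was 1.24 points (exact permutation p = 0.0844), worse with E2. Leaving out E2 replicate 1 gave 1.63 points (adjusted p = 0.162, exact permutation p = 0.00866). Leaving out fulvestrant replicate 2 as well gave 1.46 points (adjusted p = 0.291, exact permutation p = 0.0238), and the groups overlapped in each setting. Without E2 replicate 1 and fulvestrant replicate 2, the height was 19.9 ± 4.02 (SD, n = 5) with E2 and 17.8 ± 1.13 (SD, n = 5) without it, and these overlapped, although E2 replicates 2 and 3 (21.1 and 25.0) stood above the 3 vehicle libraries (16.8 to 19.7). The 2 libraries left out had the highest values of the 12, at 76.6 in E2 replicate 1 and 36.9 in fulvestrant replicate 2. A second promoter site of Nr3c1, in 10 libraries, also overlapped between the groups (exact permutation p = 0.169).

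Nr3c2 encodes the mineralocorticoid receptor. The Nr3c2 locus (gene body chr8:76899442-77245012, plus strand) held 1, 0 and 1 peaks with vehicle, 15, 0 and 1 with E2, 0, 0 and 4 under E2 plus fulvestrant, and 0, 5 and 0 with fulvestrant. The higher mean with E2 came from E2 replicate 1, in which 8 of the 15 peaks were repeat-masked, while E2 replicates 2 and 3 overlapped vehicle. None of its 21 sites was present in 3 libraries. The best-ranked was found only in E2 replicate 1 and fulvestrant replicate 2, 38 bp from the annotated start of the neighboring gene Gm10649.

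Esrra encodes the estrogen-related receptor that regulates mitochondrial genes. The Esrra locus (gene body chr19:6910977-6921813, minus strand) spans 30.8 kb and holds several other genes. It held 5, 2 and 4 peaks with vehicle, 8, 3 and 3 with E2, 3, 4 and 7 under E2 plus fulvestrant, and 4, 9 and 4 with fulvestrant. The groups overlapped, with equal means of 4.67 in the libraries given E2 and in the others. E2 replicate 1 and fulvestrant replicate 2 were the highest.

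The strongest site of the Esrra locus (chr19:6908872-6910980) was in all 12 libraries at rank percentiles of 1.28 to 13.2. It lay 199 bp from the start of Trmt112, in an exon of that neighbor, and cannot be assigned to Esrra. Its ranks overlapped between libraries given E2 and the others (exact permutation p = 0.455). By height, E2 replicates 2 and 3 (18.0 and 23.5) stood above vehicle (11.8 to 17.0), and E2 plus fulvestrant (14.7 to 18.3) overlapped vehicle. E2 replicate 1 (61.0) and fulvestrant replicate 2 (24.0) were the highest of the 12 libraries. The site at the promoter of Esrra itself (chr19:6919614-6921958), 462 bp from its start, was in 11 libraries at rank percentiles of 8.37 to 45.1, and its libraries given E2 overlapped the others (exact permutation p = 0.983). Within these, E2 plus fulvestrant (33.9 to 45.1) ranked worse than fulvestrant alone (8.37 to 23.9) without overlap.

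Esrrb encodes an estrogen-related receptor best known from embryonic stem cells. The Esrrb locus (gene body chr12:86361117-86521628, plus strand) held 3 peaks in E2 replicate 1, 2 in fulvestrant replicate 2 and none in any other library. No site was shared between libraries. The locus thus held peaks only in the 2 libraries that stand apart.

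Esrrg encodes an estrogen-related receptor of oxidative muscle and heart. The Esrrg locus (gene body chr1:187608791-188214885, plus strand) is the longest at 626 kb and held 2, 2 and 1 peaks with vehicle, 16, 5 and 8 with E2, 5, 2 and 5 under E2 plus fulvestrant, and 2, 12 and 1 with fulvestrant. Every E2 library was above every vehicle library, E2 plus fulvestrant overlapped both, and fulvestrant overlapped all. The mean was 9.67 ± 5.69 (SD, n = 3) with E2 and 1.67 ± 0.577 (SD, n = 3) with vehicle, a difference of 8 peaks (exact permutation p = 0.1). This separation is the one seen in 10.5% of genes.

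Without repeat-masked peaks the Esrrg numbers were 5, 5 and 6 with E2 and 2, 2 and 1 with vehicle, which still did not overlap, with a difference of 3.67 peaks (exact permutation p = 0.1). The difference from vehicle was 4.83 peaks when E2 replicate 1 was left out (exact permutation p = 0.1). The difference between the 6 libraries given E2 and the 6 not given it was 3.50 peaks (exact permutation p = 0.286). It was 1.67 peaks without E2 replicate 1 (exact permutation p = 0.53) and 5.23 peaks without fulvestrant replicate 2 (adjusted p = 0.614, exact permutation p = 0.0108). With both left out it was 3.40 peaks (exact permutation p = 0.0317, adjusted p = 0.762 over all genes tested).

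The Esrrg intronic site (merged region chr1:188117775-188118811) lay 509 kb from the gene start, in an intron, and had a peak in 11 libraries, all but E2 replicate 1. The vehicle libraries held 38, 44 and 41 fragments at its summit. E2 replicates 2 and 3 held 133 and 131, and the E2 plus fulvestrant libraries held 78, 142 and 150. With fulvestrant alone there were 56, 49 and 59. All 5 libraries given E2 that had a peak lay above all 6 others, the E2 and E2 plus fulvestrant libraries overlapped, and the fulvestrant libraries lay above the vehicle libraries.

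Without E2 replicate 1 and fulvestrant replicate 2, the height was 35.98 ± 2.05 (SD, n = 2) with E2, 37.2 ± 12.9 (SD, n = 3) with E2 plus fulvestrant, 11.4 ± 0.917 (SD, n = 3) with vehicle and 15.2 ± 0.576 (SD, n = 2) with fulvestrant. The height with E2 was 2.84 times that without it (exact permutation p = 0.00794, the smallest possible, Benjamini-Hochberg adjusted p = 0.118). Unlike at the Esr1 intronic site, the E2 plus fulvestrant libraries lay on both sides of E2, though the difference between the sites was not tested. The rank percentile was 0.420 and 0.449 in E2 replicates 2 and 3, 0.198 to 0.728 with E2 plus fulvestrant, 5.73 to 13.29 with vehicle and 2.15 to 5.71 with fulvestrant. The percentiles of fulvestrant alone and vehicle met at 5.71 and 5.73, a separation by percentile seen in 4.15% of regions, while the positions in the lists overlapped (2428, 3733 and 983 with fulvestrant, 6812, 2664 and 2279 with vehicle). The height was 14.8, 17.1 and 15.6 with fulvestrant and 10.4 to 12.07 with vehicle, without overlap, and its mean was 1.38 times that of vehicle (n = 3 each). How many regions separate these 2 treatments by height was not counted, so this separation has no share of regions beside it.

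Over all 12 libraries the mean rank of the Esrrg intronic site was 10.5 points worse with E2, as E2 replicate 1 had no peak (exact permutation p = 1). Without that library it was better by -6.13 points (exact permutation p = 0.00433, adjusted p = 0.149). Of the 23 sites tested, 2 (the Esr1 and Esrrg intronic sites) then separated the libraries given E2 from the others, against 4.12% of 49642 regions, and none did with all 12 libraries, against 0.161%. The same number, 2, separated without both E2 replicate 1 and fulvestrant replicate 2, against 4.59%. None of the 23 ranked worse with E2 without overlap, against 0.0383% of regions with all libraries, 0.137% without E2 replicate 1, 0.155% without both by rank and 0.0161% without both by height. No region passed an adjusted p of 0.05 by this exact permutation test in either setting, and 7916 and 2598 had an unadjusted p below 0.05.

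Between single treatments, 1 of 23 sites had better rank percentiles with E2 than with vehicle without overlap (5.87% of regions), namely the site beyond the end of Esr1, whose positions in the lists overlapped. None ranked worse (0.614%), and none ranked better with E2 than with E2 plus fulvestrant (5.68%) or worse (1.56%). E2 plus fulvestrant ranked better than vehicle at 2 of 23 sites, the Esr1 and Esrrg intronic sites, against 9.02% of regions, and worse at none (2.16%). Fulvestrant ranked worse than vehicle at none (1.7%). Against fulvestrant alone, E2 plus fulvestrant ranked better at these 2 intronic sites of 23, against 8.28% of regions, and worse at 2, the promoter sites of Nr3c1 and Esrra, against 4.79%.

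The second Esrrg site (chr1:188136050-188136539), 527 kb from the gene start, held 26 and 20 fragments in E2 replicates 2 and 3, 17 and 20 in E2 plus fulvestrant replicates 2 and 3, and had no peak elsewhere. Its window holds 2 GGTCA cores and no estrogen response element. Its ranks overlapped between the groups, as E2 replicate 1 and E2 plus fulvestrant replicate 1 had no peak (exact permutation p = 0.0606).

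**Figure D3:**
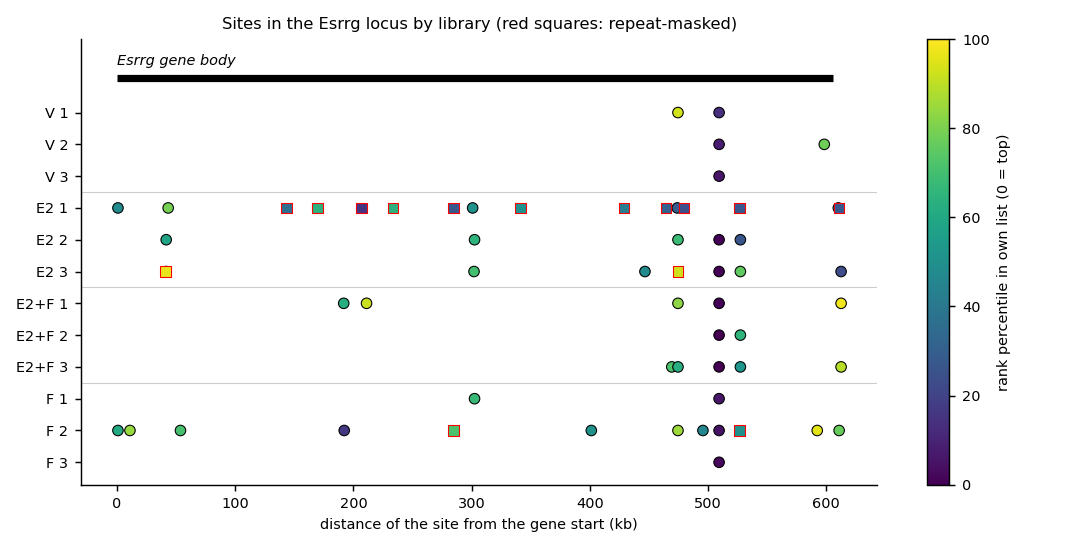
Sites in the Esrrg locus by distance from the gene start (horizontal axis, kb) and library (rows), colored by rank percentile with 0 at the top and red squares for repeat-masked peaks. The column at 509 kb is filled in 11 libraries, and E2 replicate 1 and fulvestrant replicate 2 have the most other sites.

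**Figure D4:**
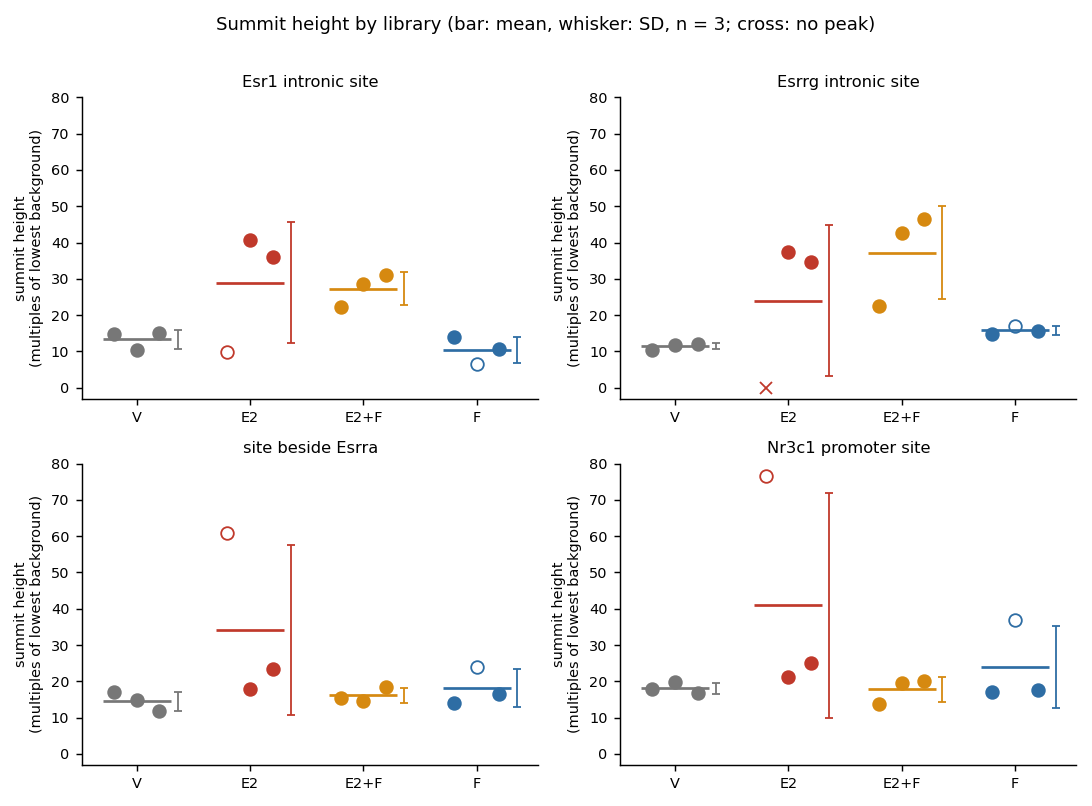
Summit height, in multiples of the library's lowest background (vertical axis), at the best site of 4 loci by treatment, with filled points for single libraries, open points for E2 replicate 1 and fulvestrant replicate 2, a cross for no peak (plotted at 0), and mean and SD (n = 3) as a bar and whisker. Filled points for E2 and E2 plus fulvestrant stand above vehicle and fulvestrant at the Esr1 and Esrrg intronic sites while beside Esrra and at the Nr3c1 promoter the E2 plus fulvestrant points overlap vehicle.

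For comparison, 40 other nuclear receptor genes were counted in the same way. In E2 against vehicle, 4 of 32 tested had higher numbers without overlap (Rxra, Rora, Rarb and Ppara), against 10.5% of all genes. In E2 plus fulvestrant against vehicle there were 3 of 28 higher and 1 lower, against 4.43% higher and 0.616% lower, and in fulvestrant against vehicle there was 1 of 32, against 3.77%. None of the 34 tested had higher numbers without overlap in the 6 libraries given E2 than in the 6 not given it, against 0.161% of genes.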

How the data were processed

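ESR1 ChIP-Seq was available as 12 peak lists (an input sample was not analysed here). Per the methods and the submitters' processing notes, the authors trimmed reads with Trimmomatic 0.39, used Bowtie2 for alignment (mm10), dropped duplicates with Picard 2.21.4 and called peaks per library with MACS2. The deposited lists give a score, a fold ratio over background, a −log10 p-value and a −log10 q-value per peak. No read counts were used, so depth is unknown apart from the recovered fragments. Fragments and local background at each summit were solved from the fold and p-value columns; at least 99.99% were whole within 2% of 1 fragment, for peaks with −log10 p up to 250, and these values cover counting error only.

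Summits were counted per gene in Python 3.11.15 (numpy 2.4.6, pandas 2.3.3, scipy 1.17.1, pysam 0.24.0) for protein-coding genes with at least 3 peaks, and ranks were taken by −log10 p for regions in at least 3 libraries. Tests were exact two-sided permutation tests on means with Benjamini-Hochberg adjustment over all genes or regions, checked on simulated data. E2 plus fulvestrant against fulvestrant and the difference of E2 effects were added after values were seen. Promoter means within 3 kb of an annotated start. Sites named are the best-ranked of each locus, those with a response element in 3 libraries and those separating treatments, with others named after their values were seen. The members and lists were chosen with earlier results of these data known. Sequence was read from GRCm38.p6, the same build as mm10. None is printed for Nr3c1. For the other nuclear receptor genes, E2 against E2 plus fulvestrant is not reported here.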

Additional observations from a re-analysis of the deposited data

Results flagged for a closer look

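In a pool of 6 libraries, the gap of 1 library to the nearest other was divided by the range of the pool. The library was far from the rest when this ratio passed the critical value of Dixon's test at the 95% level. Chance alone passes it in about 1 of 20 pools of normally distributed values. That rate cannot be applied to these small peak numbers, many of them 0. A pool in which only 1 library has peaks gives a ratio of 1.0 whatever their number, as at Esrrb and Gper1. Peak numbers per locus were examined in the 6 libraries given E2 and in the 6 not given it. Among libraries given E2, E2 replicate 1 stood apart at Esr2 (gap over range 0.8), at Esrrb (1.0) and at Nr3c2 (0.733). Among libraries not given E2, fulvestrant replicate 2 stood apart at Esrrb (1.0), at Esrrg (0.909) and at Nr3c2 (0.8). E2 plus fulvestrant replicate 3 stood apart at Gper1 (1.0), where it was the only library given E2 with a peak. In all but the Gper1 case the library was 1 of the 2 with many repeat-masked peaks, and the cause was not tested.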

How the results depend on the processing

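The direction of the Esr1 difference between libraries given E2 and not given it held in 20 of 20 alternatives, with adjusted p from 0.489 to 1. No alternative brought a member past an adjusted p of 0.05. With the replicate number as a replicate block, the Esr1 difference stayed at 7 (exact permutation p = 0.00926). Deviations of same-numbered libraries correlated across 13849 genes at -0.52 to 0.372 (18 pairs) and those of other libraries at -0.467 to 0.613 (36 pairs). The values -0.52, -0.467 and 0.613 all involve fulvestrant replicate 2, so these ranges cannot decide whether the numbers pair the libraries. Same-numbered pairs ran from -0.401 to 0.0967 for replicate 1, -0.52 to 0.0193 for replicate 2 and 0.00264 to 0.372 for replicate 3. The paper reports removing batch effects in its own ChIP-Seq analysis.

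Counts of members whose groups did not overlap moved as follows. With q at most 0.05 there were 2 in E2 against E2 plus fulvestrant, 0 in E2 plus fulvestrant against vehicle and 0 for given against not given E2. With −log10 q of at least 10 there were 1 in E2 against vehicle and 0 in the last 2 of these. Without repeat-masked peaks there were 1 in E2 against vehicle, 0 in E2 against E2 plus fulvestrant and 0 for given against not given E2. With the gene body only, E2 against E2 plus fulvestrant had 2. With 50 kb added to the gene body, E2 plus fulvestrant against vehicle had 0, fulvestrant against vehicle 1 and given against not given 0. Per 10000 peaks, E2 against vehicle had 1 and the other 3 comparisons with E2 had 0. Leaving out 1 library gave 1 to 2 in E2 against E2 plus fulvestrant and in E2 plus fulvestrant against vehicle.

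Directions turned as follows, and the cause was not tested. Fulvestrant against vehicle at Esr1 was 0.667 peaks with q at most 0.05 and 0.5 without E2 replicate 1 and fulvestrant replicate 2 (-1.33 to 0.5 without 1 library), and at Esrrg -0.167 without both (-0.167 to 5.33). Given against not given E2 was 0.333 at Nr3c1 with q at most 0.05 and 1.5 with 50 kb (-1.07 to 0.367 without 1 library), -0.133 to 0.867 at Esr2 and -0.167 to 2.93 at Nr3c2, the lowest values of Esr2 and Nr3c2 being those without E2 replicate 1. The rank difference of the Esr1 intronic site was -46.1 with −log10 q of at least 10, -9.82 without repeat-masked peaks, -7.48 without both libraries and -10.4 to 4.98 without 1. That of the Esrrg intronic site was -34.9, -6.51 without both and -6.13 to 13.8. Summit height with its sign turned, so that a negative value is higher with E2, differed by -16.2 at the Esr1 intronic site, -17.0 at the Esrrg intronic site and -7.98 at the Nr3c1 promoter over all 12 libraries, taking the highest summit in each region where the heights above are those of its most significant peak.

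Sites with better ranks and no overlap numbered 2 without both libraries and 0 to 2 without 1. Sites in all E2 and no vehicle libraries numbered 9 without both libraries, 9 when at least 2 of 3 sufficed, 9 when set against all 6 libraries without E2 and 0 to 9 without 1 library. For E2 and no E2 plus fulvestrant they numbered 5, 5 and 0 to 5. With at least 2 of 3, E2 plus fulvestrant and no vehicle gave 5 (0 to 3 without 1 library), and vehicle and no fulvestrant gave 1 (0 to 1). At the best summit of each site, the share with a response element was 0 with no mismatch and 0 within 50 bp. At the Esrrg intronic site the element started at -34 bases from the median summit, on which its printed window is centered. In a comparison of 3 libraries with 3 the smallest p is 0.1, and peaks lacking from a list may lie below its threshold.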
